A study of Homo sapiens with 17 samples.

Results

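The 10 genes described here carry glucose into the cell, start and steer its breakdown, and dispose of the product: SLC2A1, SLC2A3, HK1, HK2, PFKFB3, PFKP, PKM, LDHA, SLC16A3 and PDK1. They were chosen by name, as a pathway, from the 62754 genes counted in the tables, with earlier results of these data known. All 10 passed the filter on low counts that left 19473 genes for testing. Poly(A) RNA was sequenced from IMR90 ER:RAS cells, human lung fibroblasts that carry, from a retroviral vector, an oncogenic RAS fused to an oestrogen receptor domain. The ligand 4-hydroxytamoxifen (4OHT) switches the fusion on and drives the cells into oncogene-induced senescence, and DMSO is the vehicle control. Cells were transfected with non-targeting siRNA (siNT) or siRNA against SMARCA4 (siSMARCA4), an ATPase that drives SWI/SNF nucleosome remodelling, a day before treatment, and RNA was taken 7 days after 4OHT.

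There were 5 libraries of DMSO siNT, 6 of 4OHT siNT and 6 of 4OHT siSMARCA4, all 17 from cells with the ER:RAS fusion. No group combined DMSO with siSMARCA4. Each label added a number after the siRNA name (2 or 4), a replicate number and a tag, V or VM, whose meaning is not given; a library is written here as 4-3VM for number 4, replicate 3, tag VM. The 4OHT siNT libraries were all VM, and 3 of the 6 siSMARCA4 libraries were V. Nothing stated that libraries of a group came from separate cultures, so p-values measure the spread between these libraries only.

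Depth was 39.1 M to 68.98 M counts per library (M, 1000000 counts). SMARCA4 itself was at 268 ± 13.2 CPM (counts per 1000000 after TMM scaling; SD, n = 6) in 4OHT siNT and at 88.1 ± 22.8 CPM (n = 6) in 4OHT siSMARCA4, without overlap (log2 fold change -1.61, standard error 0.13, edgeR adjusted p 5.14e-07). The fibroblast label was borne out by 12 fibroblast markers, which summed to 30721 to 38545 CPM in DMSO siNT, 21999 to 33651 CPM in 4OHT siNT and 10873 to 20919 CPM in 4OHT siSMARCA4. With 4OHT 8 of these 12 were called lower and 2 higher (COL5A1 and COL6A3), beside 27.4% and 27.0% of all genes, and on knockdown 11 were called lower, all but VIM, beside 13.8% of all genes. The part this had in the results below was not tested. Of 14 markers of other cell types, KRT5 and SCGB1A1 had 0 counts in every library. The list summed to 177 to 247 CPM in DMSO siNT, 290.4 to 334 CPM in 4OHT siNT and 248 to 415 CPM in 4OHT siSMARCA4, and without CD68 and TUBB3 to 1.75 to 6.21 CPM in any library. With 4OHT, TUBB3 (0.69), VWF (1.76) and PECAM1 (from 0.0145 to 0.936 CPM) were called higher and EPCAM (-1.17) lower, and on knockdown PECAM1 (-1.43) and EPCAM (-0.84) were called lower.

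Glucose enters fibroblasts by facilitated diffusion through carriers of the SLC2A (GLUT) family, and a hexokinase traps it by phosphorylation. Phosphofructokinase then makes the committed step, which PFKFB enzymes steer by making or removing the activator fructose 2,6-bisphosphate. Pyruvate kinase yields pyruvate, which lactate dehydrogenase turns into lactate for export by monocarboxylate carriers. Pyruvate that enters the mitochondria is instead converted by pyruvate dehydrogenase, which PDK kinases switch off. Several of these genes are textbook targets of the hypoxia-inducible factors (HIF), whose binding core reads ACGTG or GCGTG.

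The sequence just before the first listed start of HK2, LDHA and SLC2A1 is shown because these genes had the largest change with 4OHT, the most HIF core matches in the window nearest the first start, and a fall with no match there. Each is the 250 bases upstream of the start in RefSeq (GRCh38.p14), on the strand of the gene: chr2:74833877-74834126 for HK2 (plus strand), chr11:18394313-18394562 for LDHA (plus strand) and chr1:42958869-42959118 for SLC2A1 (minus strand). Capitals mark each ACGTG or GCGTG on either strand.
HK2: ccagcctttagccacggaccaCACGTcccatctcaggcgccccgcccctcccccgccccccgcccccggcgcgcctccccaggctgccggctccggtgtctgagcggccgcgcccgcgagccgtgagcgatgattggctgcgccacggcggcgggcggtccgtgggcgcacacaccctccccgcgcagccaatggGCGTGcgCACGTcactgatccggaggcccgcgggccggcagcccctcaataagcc
LDHA: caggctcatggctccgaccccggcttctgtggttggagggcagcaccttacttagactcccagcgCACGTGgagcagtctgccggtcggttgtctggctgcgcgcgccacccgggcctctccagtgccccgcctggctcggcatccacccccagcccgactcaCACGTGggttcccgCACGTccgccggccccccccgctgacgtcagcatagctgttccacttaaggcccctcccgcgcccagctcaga
SLC2A1: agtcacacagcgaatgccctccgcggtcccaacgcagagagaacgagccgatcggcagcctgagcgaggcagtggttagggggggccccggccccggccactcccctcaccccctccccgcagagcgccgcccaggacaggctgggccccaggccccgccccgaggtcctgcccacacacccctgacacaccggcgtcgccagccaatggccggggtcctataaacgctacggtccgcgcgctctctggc

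The HK2 window held ACGTG at 2 places and GCGTG at 1. The LDHA window held ACGTG at 5 places, 4 of them the overlapping strands of 2 copies of CACGTG. The SLC2A1 window held neither form. Neither did the first windows of PDK1, which also fell with 4OHT, and of HK1 and SLC16A3, which rose. Later windows of these genes did. ACGTG was at 2 places in window 2 of PDK1 and of SLC16A3, and GCGTG was in window 6 of HK1 and windows 4 and 5 of SLC16A3. Which start these cells use was not tested. Of 9 first windows, 2 held ACGTG and 2 held GCGTG. RefSeq starts were matched for 9 of the 10 genes, all but SLC2A3, with 26 windows in all, of which 7 held ACGTG and 8 held GCGTG. Among 35116 windows of the same length at all starts, 18.5% held ACGTG and 32.2% held GCGTG. The AP-1 motif TGANTCA was in 2 of the 26 windows, both of HK1, against 6.57% of all windows. These are matches of letters and not sites of binding.

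The first comparison asked how senescence changed these genes, with 4OHT siNT set against DMSO siNT. Among the transcripts of glucose carriers and hexokinases, HK2 rose 7.98-fold (from 28.6 to 228 CPM) and SLC2A3 rose 2.04-fold, while SLC2A1 fell 1.56-fold. PFKFB3 rose 2.06-fold, SLC16A3 1.5-fold and HK1 1.44-fold, and PDK1 fell 2.12-fold. PFKP, PKM and LDHA did not pass the test. In bulk RNA, fewer cells that express a gene and less of its RNA per cell cannot be told apart. In all, 7 of the 10 were called (5 higher, 2 lower), where a call is an edgeR adjusted p under 0.05 over all genes tested and 54.4% of all genes were called (27.0% higher and 27.4% lower). The libraries did not overlap between groups for the same 7 genes, against 39.6% of all genes tested. A called change of 1 or more on the log2 scale was found for 4 of the 10 (HK2, SLC2A3, PFKFB3 and PDK1), beside 21.0% of all genes. The median log2 fold change was 0.34 over the 10 genes and 0.00 over all genes.

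**Figure D1:**
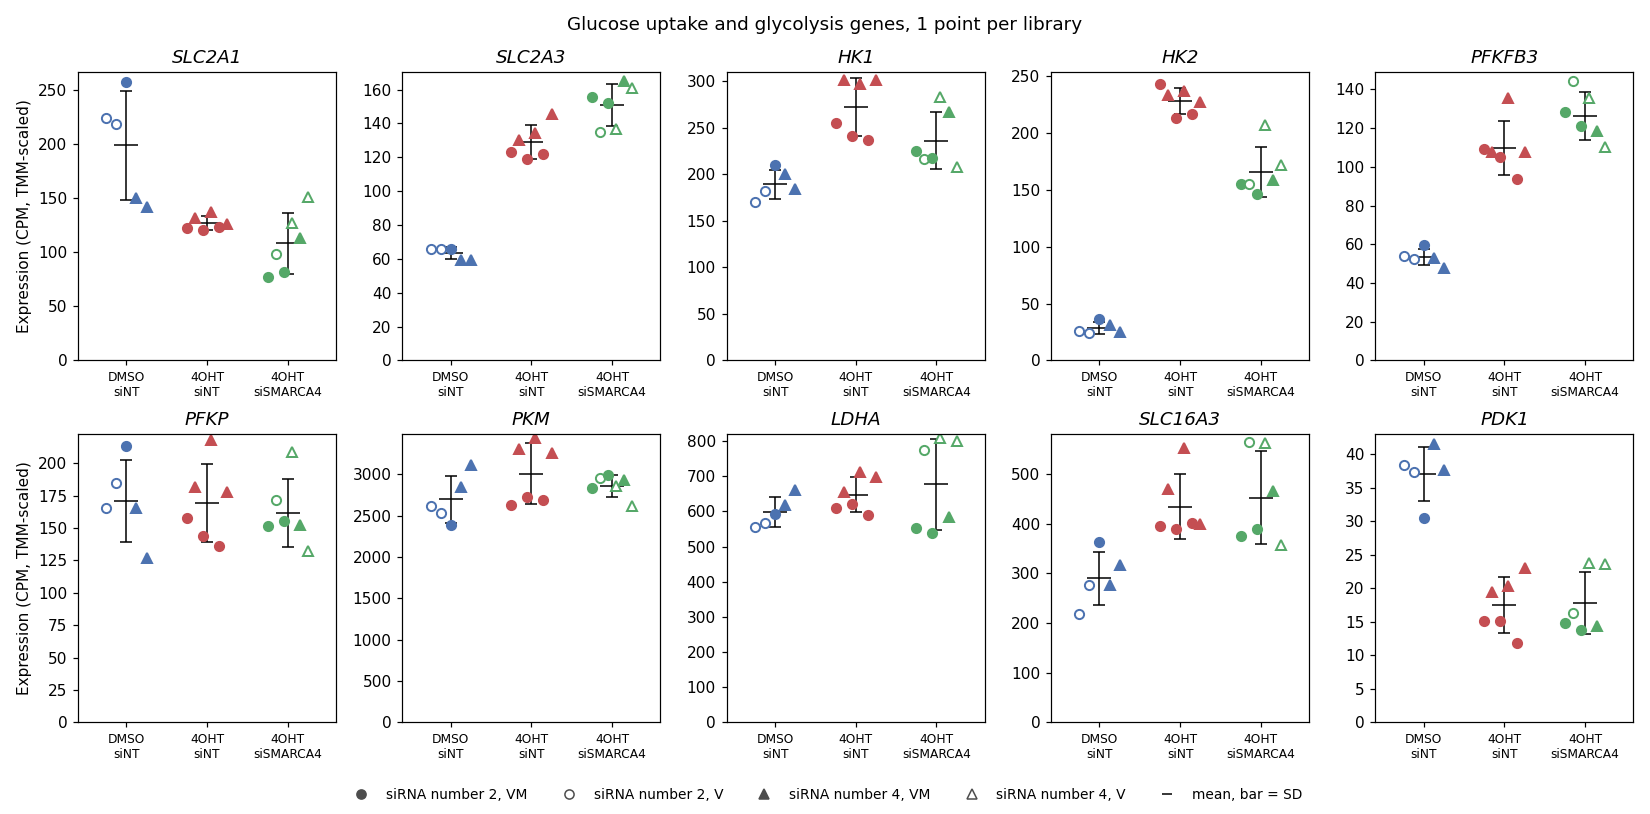
Expression of each of the 10 genes in CPM (y axis, from 0, a separate scale per gene) in DMSO siNT, 4OHT siNT and 4OHT siSMARCA4. Each point is a library, circles for siRNA number 2 and triangles for number 4, filled for VM and open for V, with the mean and SD; HK2 in the 4OHT groups stands above every DMSO library, and its siSMARCA4 libraries all lie below its siNT libraries.

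HK2 (ENSG00000159399; GRCh38 2:74834127-74893359) encodes the inducible hexokinase that binds mitochondria and is abundant in muscle and many tumours. Its level was 25.9, 24.4, 36.3, 31.5 and 25.1 CPM in the 5 DMSO siNT libraries, and 214 to 243 CPM with a median of 230.3 CPM in 4OHT siNT. Every 4OHT library lay far above every DMSO library (log2 fold change 3.00, standard error 0.11, edgeR adjusted p 2.53e-13). In 4OHT siSMARCA4 the level ranged from 146 to 207 CPM with a median of 157 CPM, below every 4OHT siNT library and above every DMSO library.

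HK1 (ENSG00000156515; 10:69269984-69401884) encodes the hexokinase that most tissues express constantly. It was at 171, 182, 209.9, 201 and 184 CPM in DMSO siNT and at 237 to 302 CPM (median 276 CPM) in 4OHT siNT. Again no 4OHT siNT library overlapped the DMSO libraries (log2 fold change 0.52, standard error 0.10, edgeR adjusted p 0.000162). In 4OHT siSMARCA4 it ranged from 208 to 283 CPM (median 222 CPM), which overlapped both other groups.

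SLC2A3 (ENSG00000059804; 12:7919230-8019007) encodes GLUT3, a high-affinity glucose carrier best known from neurons. It was at 65.7, 66.0, 65.9, 59.1 and 59.5 CPM in DMSO siNT, at 119 to 146 CPM (median 127 CPM) in 4OHT siNT and at 135 to 165 CPM (median 154 CPM) in 4OHT siSMARCA4. All 4OHT libraries stood above all DMSO libraries, and the 4OHT groups overlapped each other. The rise with 4OHT was 1.03 on the log2 scale (standard error 0.07, edgeR adjusted p 1.04e-09).

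SLC2A1 (ENSG00000117394; 1:42925353-42958893) encodes GLUT1, the carrier of basal glucose uptake in most cells. It was at 224, 219, 258, 150.4 and 142 CPM in DMSO siNT and at 120.4 to 138 CPM (median 125 CPM) in 4OHT siNT. The groups did not overlap (log2 fold change -0.65, standard error 0.17, edgeR adjusted p 0.00284), but the DMSO libraries fell into a high set, the 3 with number 2, and a low set, the 2 with number 4. Within number 2 the change with 4OHT was -0.93 (standard error 0.11, edgeR adjusted p 3.91e-06) and within number 4 it was -0.15 (standard error 0.12, edgeR adjusted p 0.316). The difference of these changes was itself called, at -0.78 (standard error 0.17, edgeR adjusted p 0.0389), among 2.1% of all genes. The fall of SLC2A1 with 4OHT was thus called with number 2 and not with number 4, although every library of this comparison carried siNT.

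PFKFB3 (ENSG00000170525; 10:6144934-6254644) encodes the kinase-rich form of the enzyme that makes fructose 2,6-bisphosphate. It was at 54.0, 52.4, 59.7, 53.1 and 48.0 CPM in DMSO siNT, at 93.6 to 136 CPM (median 108 CPM) in 4OHT siNT and at 110.3 to 144 CPM (median 125 CPM) in 4OHT siSMARCA4. The 4OHT groups overlapped each other and neither reached down to DMSO (4OHT against DMSO, log2 fold change 1.04, standard error 0.09, edgeR adjusted p 1.83e-08). PFKP (ENSG00000067057; 10:3066333-3137718), the platelet form of phosphofructokinase, had group means of 171 ± 31.7 (SD, n = 5), 169 ± 29.9 (n = 6) and 162 ± 26.2 CPM (n = 6) in DMSO siNT, 4OHT siNT and 4OHT siSMARCA4. Its ranges overlapped in every comparison, and with 4OHT the log2 fold change was -0.02 (95% interval -0.31 to 0.28). When only libraries of number 2 were fitted, PFKP was called lower (-0.40, edgeR adjusted p 0.00587), and with number 4 alone it was at 0.35 and not called. A long noncoding RNA gene on the same strand, ENSG00000278419, overlaps the end of PFKP and held 9.30% as many counts, so PFKP's level is uncertain to that extent.

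PKM and LDHA, which act at the end of the pathway, were the most abundant of the 10, and neither was called. PKM (ENSG00000067225; 15:72199029-72231819), pyruvate kinase, ranged from 2385 to 3108 CPM in DMSO siNT and from 2625 to 3438 CPM in 4OHT siNT (log2 fold change 0.16, 95% interval -0.03 to 0.34, edgeR adjusted p 0.149). Counts per gene do not separate its spliced forms PKM1 and PKM2. LDHA (ENSG00000134333; 11:18394560-18408425), the lactate dehydrogenase subunit that favours lactate, was at 556, 567, 593, 617 and 662 CPM in DMSO siNT and at 591 to 712 CPM (median 637 CPM) in 4OHT siNT. The groups overlapped (log2 fold change 0.11, 95% interval -0.12 to 0.34, edgeR adjusted p 0.412).

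SLC16A3 (ENSG00000141526; 17:82217934-82261129) encodes MCT4, the lactate exporter of glycolytic cells. It was at 218, 277, 363, 277 and 317 CPM in DMSO siNT and at 389 to 554 CPM (median 400.4 CPM) in 4OHT siNT, without overlap (log2 fold change 0.58, standard error 0.15, edgeR adjusted p 0.00242). PDK1 (ENSG00000152256; 2:172555373-172608669) encodes a kinase that inactivates pyruvate dehydrogenase. It was at 38.3, 37.4, 30.4, 41.6 and 37.6 CPM in DMSO siNT, against 11.9 to 23.0 CPM (median 17.3 CPM) in 4OHT siNT, again without overlap (log2 fold change -1.08, standard error 0.17, edgeR adjusted p 2.86e-05). Of the 2 members that fell with 4OHT, PDK1 fell further than SLC2A1.

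Per length (CPM per kb of exon), the order of levels in DMSO siNT ran from PKM (315 ± 33.1, SD, n = 5) through LDHA (99.4 ± 7.06), SLC16A3, SLC2A1, HK1, PFKP, PFKFB3, SLC2A3 and HK2 (4.84 ± 0.863) to PDK1 (2.50 ± 0.274). The neighbours SLC16A3, SLC2A1, HK1 and PFKP overlapped each other in turn, as did PFKFB3 and SLC2A3. Length here is that of all annotated exons of a gene merged, which need not be the length of the transcripts expressed. In 4OHT siNT, PKM, LDHA and SLC16A3 kept the top 3 places and PDK1 the last, and HK2, which had ranked next to last, stood at place 5 with 38.6 ± 1.93 CPM per kb (n = 6), overlapping HK1 at 39.6 ± 4.56. SLC2A3 (17.8 ± 1.37) and SLC2A1 (19.2 ± 0.982) lay side by side with PFKFB3 (17.97 ± 2.28) between them. In 4OHT siSMARCA4, SLC2A3 (20.8 ± 1.72) ranked above SLC2A1 (16.4 ± 4.28), and the libraries of PFKP, SLC2A3, PFKFB3 and SLC2A1 overlapped in turn.

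The second comparison asked how these genes responded when SMARCA4 was depleted in senescent cells, with 4OHT siSMARCA4 set against 4OHT siNT. HK2 fell 1.38-fold and SLC2A3 rose 1.17-fold, and the other 8 genes did not pass the test. The 2 called of 10 (1 higher, 1 lower) stand beside 24.2% of all genes called (10.4% higher and 13.8% lower), so the share called among these genes was near the background. HK2 was also the only one of the 10 whose libraries did not overlap, against 12% of all genes, and none had a called change of 1 or more on the log2 scale (edgeR), beside 4.81% of all genes. The median log2 fold change was -0.02 over the 10 genes and also -0.02 over all genes.

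**Figure D2:**
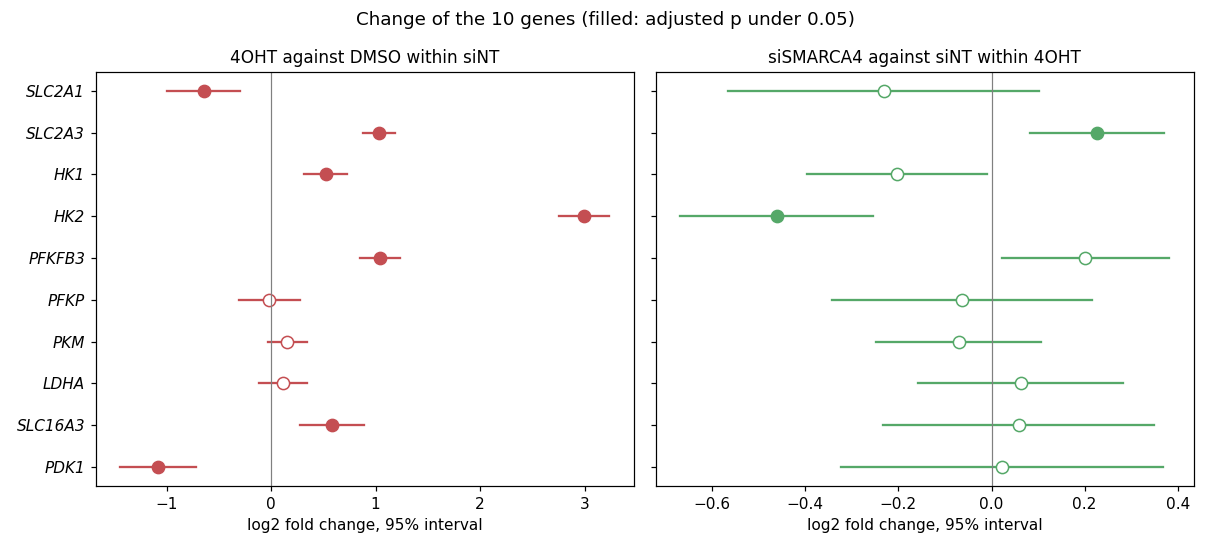
Log2 fold change (x axis) of each of the 10 genes for 4OHT against DMSO within siNT (left, n = 6 and 5) and for siSMARCA4 against siNT within 4OHT (right, n = 6 and 6), with 95% intervals and filled points where edgeR's adjusted p is under 0.05. The x scales differ: HK2 reaches 3.00 on the left and -0.46 on the right, where 8 of the 10 points are open.

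The fall of HK2 was -0.46 (standard error 0.10, edgeR adjusted p 0.00265), from 228 ± 11.4 to 166 ± 21.8 CPM (SD, n = 6 each). It undid 31.3% of the rise in CPM that 4OHT had made, and HK2 stayed 5.79-fold above DMSO siNT. With number 2 the change was -0.56 (edgeR adjusted p 0.0093) and with number 4 it was -0.37 (edgeR adjusted p 0.0705), and the difference between the numbers was not called (-0.18, standard error 0.19, edgeR adjusted p 0.687). When only libraries of number 4 were fitted, 3 in each group, the fall was -0.34 and its call was lost (edgeR adjusted p 0.135). HK2P1, a processed copy of HK2 that may share its reads, averaged 0.438 ± 0.126 CPM in 4OHT siNT (n = 6), beside 228 CPM for HK2. How shared reads were split between HK2P1 and HK2 was not tested. Of 17 near copies of the members, 3 were tested, and of these HK2P1 alone was called on knockdown, beside 24.2% of all genes.

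The rise of SLC2A3 was 0.23 (standard error 0.07, edgeR adjusted p 0.0226), from 129 ± 9.97 to 151 ± 12.5 CPM (SD, n = 6 each), so SLC2A3 moved further from its DMSO level on knockdown and not back towards it. The call was lost without 4OHT siNT 2-1VM (0.21, adjusted p 0.0512), 4OHT siNT 2-2VM (0.20, adjusted p 0.0516) or 4OHT siSMARCA4 4-2VM (0.20, adjusted p 0.0573), and with number 4 alone (0.21, adjusted p 0.287), by the same edgeR test. SLC2A14, a near copy of SLC2A3, was at 2.67 ± 0.61 CPM in 4OHT siNT and 2.41 ± 0.225 CPM in 4OHT siSMARCA4 (n = 6 each).

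SLC2A1 ranged from 77.2 to 151 CPM (median 106 CPM) in 4OHT siSMARCA4, wider than the 120.4 to 138 CPM of 4OHT siNT. The 3 number 2 libraries were at 77.2, 98.3 and 82.0 CPM and the 3 number 4 libraries at 127, 113 and 151 CPM, and these sets did not overlap. Over all libraries the knockdown change was -0.23 (standard error 0.16, edgeR adjusted p 0.316). With number 2 it was -0.51 (standard error 0.11, edgeR adjusted p 0.00441) and with number 4 it was -0.01 (standard error 0.11, edgeR adjusted p 0.953), but the difference of -0.50 (standard error 0.15) was not called (edgeR adjusted p 0.131). The fall was called when only VM libraries were fitted (-0.47, edgeR adjusted p 0.0464) and with the tag as a covariate (-0.44, edgeR adjusted p 0.0457). Neither fit took the number into account, and the VM libraries of 4OHT siSMARCA4 were 2-1VM, 2-3VM and 4-2VM, mostly of number 2.

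HK1 and PFKFB3 came close to a call in opposite directions. HK1 changed by -0.20 (95% interval -0.40 to -0.01, edgeR adjusted p 0.12) and PFKFB3 by 0.20 (95% interval 0.02 to 0.38, edgeR adjusted p 0.0956). Leaving out a library or fitting 1 siRNA number changed these calls: HK1 was called without 4OHT siSMARCA4 4-2V (-0.26, adjusted p 0.0387), and PFKFB3 was called without 4OHT siNT 4-2VM (0.27, adjusted p 0.0195) or 4OHT siSMARCA4 4-3V (0.24, adjusted p 0.0499), by edgeR. PFKFB3 was also called with number 2 alone (0.40, edgeR adjusted p 0.00915), and with number 4 alone it was at 0.09 (edgeR adjusted p 0.708). PFKP changed by -0.06 (95% interval -0.34 to 0.21), PKM by -0.07 (-0.25 to 0.11), LDHA by 0.06 (-0.16 to 0.28), SLC16A3 by 0.06 (-0.23 to 0.35) and PDK1 by 0.02 (-0.32 to 0.37).

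The level of LDHA in 4OHT siSMARCA4 followed the tag. The 3 V libraries were at 774, 807 and 801 CPM and the 3 VM libraries at 554, 538 and 585 CPM, while 4OHT siNT, all VM, ranged from 591 to 712 CPM. The V libraries thus lay above and the VM libraries below every 4OHT siNT library. When only VM libraries were fitted, the knockdown change of LDHA was -0.20 (edgeR adjusted p 0.0888) and no longer 0.06. PDK1 was split the same way, with V libraries at 16.3, 23.7 and 23.6 CPM and VM libraries at 14.9, 13.8 and 14.3 CPM. Of the 10 genes these 2 were higher in V than in VM libraries without overlap, beside 11.7% of all genes, and none was lower, beside 10.6%. No 4OHT siNT library was V. DMSO siNT held both tags. There LDHA was lower in the V libraries, at 556 and 567 CPM, than in the VM libraries, at 593, 617 and 662 CPM. PDK1 overlapped between the tags there (37.4 and 38.3 CPM in V, 30.4 to 41.6 CPM in VM). Both DMSO V libraries were of number 2 and both DMSO number 4 libraries were VM, so tag and number were entangled. By number, LDHA in DMSO siNT was at 556, 567 and 593 CPM with number 2 and at 617 and 662 CPM with number 4. SMARCA4 itself was also higher in the V than in the VM libraries of 4OHT siSMARCA4, without overlap. The part of the tag in the knockdown values was not tested beyond these values and the fits named here.

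Levels also followed the siRNA number within 4OHT siNT. There 7 of the 10 genes (SLC2A1, SLC2A3, HK1, PFKP, PKM, LDHA and PDK1) were higher in all 3 number 4 libraries than in all 3 number 2 libraries, beside 15.8% of all genes, and none was lower, beside 20.8%. PKM was at 2625, 2728 and 2687 CPM with number 2 and at 3309, 3438 and 3263 CPM with number 4. The knockdown change of PKM was accordingly 0.13 (standard error 0.08) with number 2 and -0.25 (standard error 0.08) with number 4, and their difference of 0.38 (standard error 0.11) was not called (edgeR adjusted p 0.109). In 4OHT siSMARCA4 only SLC2A1 and HK2 were higher in all number 4 libraries, beside 8.01% of all genes, and none was lower, beside 6.38%.

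The ratio of paralogs within a library does not depend on how libraries are scaled. Of the sum of HK1 and HK2 per length, HK2 made up 14.99%, 13.5%, 16.7%, 15.4% and 13.7% in DMSO siNT, 46.6% to 52.5% (median 49.4%) in 4OHT siNT and 40.8% to 49.0% (median 45.0%) in 4OHT siSMARCA4. Per length, the minor hexokinase in DMSO was thus on a par with HK1 in senescent cells, and a little under it after knockdown. In plain CPM, HK2 was below HK1 in every 4OHT siNT library (means 228 and 272 CPM). The log2 ratio of HK2 to HK1 rose by 2.49 with 4OHT (exact 2-sided permutation p 0.00216, the smallest these group sizes allow, adjusted p 0.00649 over 12 tests) and fell by 0.26 on knockdown (exact 2-sided permutation p 0.0152, adjusted p 0.0303). In 4OHT siNT the HK2 share was 50.8% to 52.5% in the 3 libraries of number 2 and 46.6% to 48.0% in the 3 of number 4, without overlap, and the test did not take the number into account. The fall on knockdown was -0.41 in the libraries of number 2 and -0.12 in those of number 4, a difference that was not tested. The adjusted p on knockdown rose to between 0.0563 and 0.0606 in the exact test when any of 4OHT siNT 2-1VM, 2-2VM or 2-3VM or 4OHT siSMARCA4 2-1VM, 2-3VM or 4-2VM was left out.

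**Figure D3:**
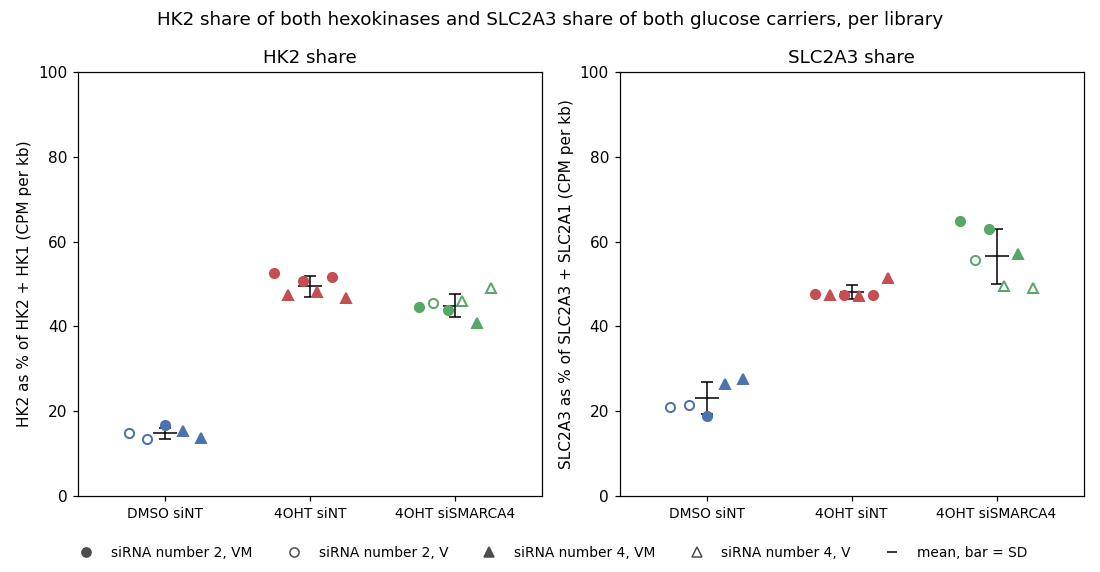
HK2 as a percentage of HK1 and HK2 together (left) and SLC2A3 as a percentage of SLC2A1 and SLC2A3 together (right), from CPM per kb, in each library of the 3 groups, with mean and SD and symbols by siRNA number and tag. Both shares stand far higher in 4OHT than in DMSO, and on knockdown the HK2 share drops from a mean of 49.5% to 44.9% while the SLC2A3 share rises from 48.1% to 56.5%.

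Among the glucose carriers, SLC2A3 made up 21.1%, 21.5%, 18.9%, 26.4% and 27.6% of SLC2A1 and SLC2A3 together in DMSO siNT, 47.1% to 51.4% (median 47.4%) in 4OHT siNT and 49.2% to 64.8% (median 56.4%) in 4OHT siSMARCA4. The log2 ratio rose by 1.64 with 4OHT (exact 2-sided permutation p 0.00216, adjusted p 0.00649) and by a further 0.50 on knockdown (exact 2-sided permutation p 0.0152, adjusted p 0.0303). The rise on knockdown was 0.80 in the libraries of number 2 and 0.19 in those of number 4, a difference that was not tested. The adjusted p on knockdown was 0.0563 to 0.0606 in the exact test without any of 4OHT siNT 2-1VM, 4-1VM, 2-2VM, 4-2VM or 2-3VM. The ratios of LDHA to LDHB and of SLC16A3 to SLC16A1, which encodes MCT1, did not pass the exact test in any comparison (adjusted p 0.0742 to 0.708). The nearest was SLC16A3 to SLC16A1 on knockdown, at -0.38 (exact 2-sided permutation p 0.0433, adjusted p 0.0742), which was called at -0.44 (exact test, adjusted p 0.0445) without 4OHT siSMARCA4 2-3V or 4-2V. With 4OHT, that ratio was called at 0.47 (exact test, adjusted p 0.026) without DMSO siNT 2-2VM, against 0.27 with it.

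The third comparison set knocked-down senescent cells beside DMSO siNT, which shares libraries with both others and differs by 4OHT and siRNA together. It called 7 of the 10 (5 higher, 2 lower), beside 55.1% of all genes (26.5% higher and 28.6% lower), and for 4 of them the libraries did not overlap, beside 36.3% of all genes. A called difference of 1 or more on the log2 scale was found for the same 4 genes as with 4OHT alone, beside 21.7% of all genes. HK2 differed by 2.53, SLC2A3 by 1.26, PFKFB3 by 1.24, SLC16A3 by 0.64 and HK1 by 0.32 on the log2 scale, and PDK1 by -1.06 and SLC2A1 by -0.88. Group means of SLC2A3 ran 63.2, 129 and 151 CPM, those of PFKFB3 53.4, 109.9 and 126 CPM and those of PDK1 37.1, 17.5 and 17.8 CPM, in DMSO siNT, 4OHT siNT and 4OHT siSMARCA4. Of the 7 genes that 4OHT changed, HK2 was called back towards its DMSO level on knockdown. The mean of HK1 moved back by 43.3% of its rise with 4OHT, more than the 31.3% of HK2, but its knockdown change was not called over all libraries.

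Around these members, 9 of 17 other enzymes of glycolysis tested rose with 4OHT, none fell and 8 did not pass, beside 27.0% of all genes higher and 27.4% lower. Their median log2 fold change was 0.37. They included BPGM, which makes 2,3-bisphosphoglycerate, at 2.56, the enolase ENO2 at 1.49, and GPI, the isomerase after hexokinase, at 0.93. On knockdown 1 of the 17 rose and 2 fell, beside 10.4% and 13.8% of all genes: BPGM rose by 0.58, and the phosphofructokinases PFKL (-0.65) and PFKM (-0.32) fell. Among 3 other regulators of fructose 2,6-bisphosphate tested, PFKFB4 rose by 1.54 and PFKFB2 by 0.39 with 4OHT, and on knockdown PFKFB4 fell by 0.54 while PFKFB2 rose by 0.40. The fall of PFKFB4 was -0.44 without 4OHT siNT 4-2VM and was then not called (edgeR adjusted p 0.0508), and it was -0.21 with number 2 alone (edgeR adjusted p 0.367) and -0.75 with number 4 alone (edgeR adjusted p 0.0502), neither called. In the fit of number 4 alone PFKL (-0.59, edgeR adjusted p 0.0572) and PFKM (-0.34, edgeR adjusted p 0.149) were not called. PFKFB2 lost its call in 4 of 24 alternative fits with 4OHT and in 2 of 25 on knockdown.

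**Figure D4:**
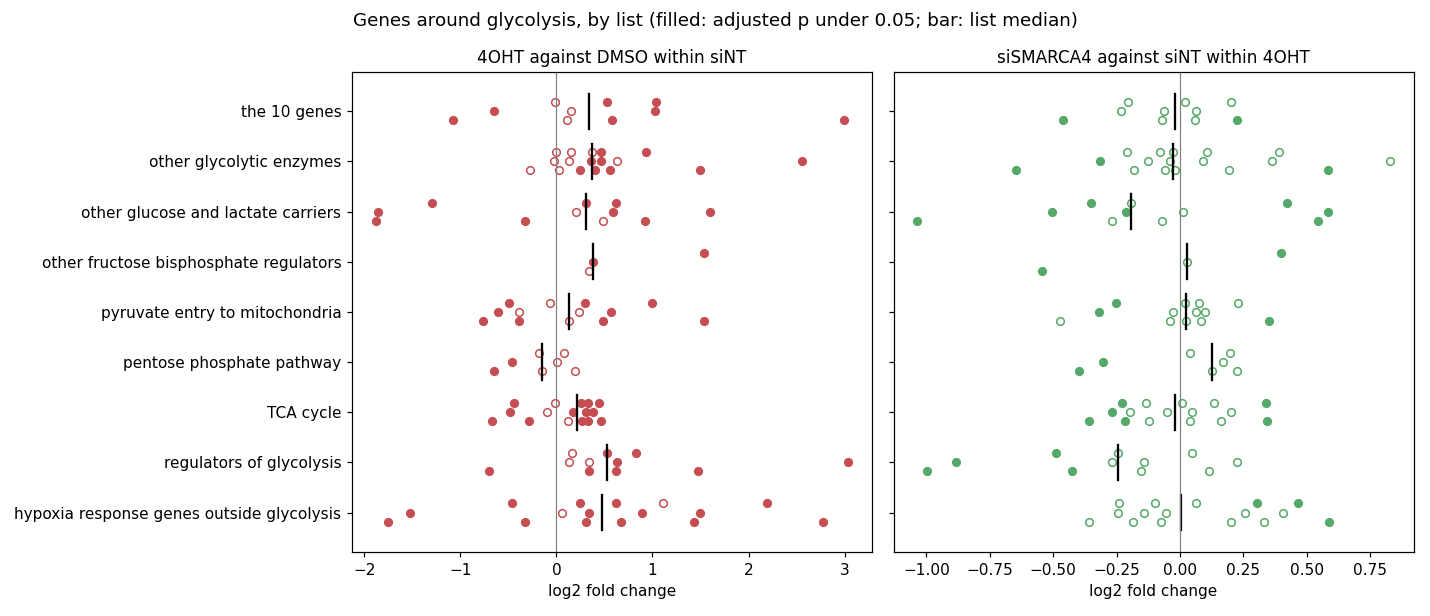
Log2 fold change (x axis) of every tested gene in the 10-gene set and in 8 lists around glycolysis, for 4OHT against DMSO (left) and siSMARCA4 against siNT (right), with filled points where edgeR's adjusted p is under 0.05 and a bar at each list's median. The x scales differ; on the left all filled points of the other glycolytic enzymes lie above 0, and on the right the filled points of the regulators of glycolysis all lie below 0.

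Of 11 other carriers of glucose and lactate and their partners, 5 rose and 4 fell with 4OHT, and 3 rose and 4 fell on knockdown, beside 27.0% of all genes higher and 27.4% lower with 4OHT and 10.4% higher and 13.8% lower on knockdown. SLC2A6 (GLUT6) rose by 1.60 and then by 0.55, and BSG, the chaperone of the lactate carriers, rose by 0.59 and then fell by 0.21. Of the same SLC2A family, SLC2A12 fell by 1.86 with 4OHT and SLC2A13 rose by 0.92. SLC2A11 rose by 0.62 and then fell by 0.35, the latter a call lost in 4 of 25 alternative fits. SLC16A7, which encodes MCT2, fell by 1.88 and then rose by 0.58, SLC16A1 rose by 0.31 and then by 0.42, and EMB, another partner of these carriers, fell by 1.298 and then by 0.50. On knockdown BSG was at -0.20 to -0.18 and not called without any of 4OHT siNT 2-2VM or 2-3VM or 4OHT siSMARCA4 2-1VM or 2-3VM (edgeR adjusted p 0.0526 to 0.0769), and with number 4 alone it was at -0.067 (edgeR adjusted p 0.744). EMB was not called without 4OHT siSMARCA4 2-3VM (-0.47, edgeR adjusted p 0.0558) or 4-2VM (-0.41, edgeR adjusted p 0.0548), and SLC16A1 was not called in VM libraries alone (0.34, edgeR adjusted p 0.0703).

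Of 11 regulators of the pathway tested, 7 rose and 1 fell with 4OHT, and on knockdown 4 fell and none rose (edgeR). Over all genes 27.0% were higher and 27.4% lower with 4OHT, and 10.4% higher and 13.8% lower on knockdown. ARRDC4 and TXNIP, arrestins that respond to glucose through MondoA and restrain its uptake, rose by 3.04 and 1.48 and then fell by 1.00 and 0.88. MLXIP, which encodes MondoA, rose by 0.83 and then fell by 0.43, and MYC rose by 0.63 and then fell by 0.49. Values of the MLXIP fall on knockdown under the alternative fits are not given here. With number 4 alone the falls on knockdown were -0.34 for ARRDC4, -0.55 for TXNIP and -0.24 for MYC, none called (edgeR adjusted p 0.5, 0.181 and 0.154), and in VM libraries alone ARRDC4 fell by 1.79 and TXNIP by 1.53. EPAS1, which encodes a HIF alpha subunit, fell by 0.70 with 4OHT, and HIF1A rose by 0.52. The call of EPAS1 was lost in 3 of 24 alternative fits, among them VM libraries alone (-0.39, edgeR adjusted p 0.0578).

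Over all genes, 27.0% rose and 27.4% fell with 4OHT, and 10.4% rose and 13.8% fell on knockdown, and the counts of the following lists stand beside these shares. Of 16 hypoxia response genes outside glycolysis, 10 rose and 4 fell with 4OHT (median 0.48), led by ANGPTL4 (2.77), VEGFA (2.19) and DDIT4 (1.49) upward and by LOX (-1.75) and CA12 (-1.52) downward. STC2 (-0.46) came next downward, with its call lost in 9 of 24 alternative fits. On knockdown 3 rose and none fell, namely BNIP3L (0.59), VEGFA (0.47) and MXI1 (0.30). The rise of VEGFA was not called in VM libraries alone (0.33, edgeR adjusted p 0.0656). Over 25 alternative fits, the knockdown call was lost in 3 for VEGFA and in 2 for MXI1. Past pyruvate, 5 of 13 genes of mitochondrial pyruvate entry and pyruvate dehydrogenase rose and 4 fell with 4OHT. Among them were PDK3 (0.99), PDP2 (0.57) and PDHX (0.49) upward and PDK2 (-0.76), MPC1 (-0.60) and PDHB (-0.49) downward. With 4OHT, PDHX lost its call in 2 of 24 alternative fits, PDP2 in 1 and MPC1 in 1. On knockdown PDP2 rose (0.35) and PDK2 (-0.32) and PDHA1 (-0.25) fell. The fall of PDK2 was not called without 4OHT siNT 4-1VM (-0.28), 4OHT siNT 4-2VM (-0.27) or 4OHT siSMARCA4 2-1VM (-0.27). Over 25 alternative fits, the knockdown call was lost in 6 for PDK2, in 3 for PDHA1 and in 1 for PDP2. Of 16 tricarboxylic acid cycle genes, 9 rose and 4 fell with 4OHT and 2 rose and 4 fell on knockdown, with FH falling in both (-0.49 and -0.36). The largest called changes with 4OHT were OGDH (0.46), SDHB (0.45) and IDH3B (0.39) upward and SUCLG2 (-0.67), FH and SDHD (-0.44) downward. On knockdown SDHD (0.34) and SUCLG2 (0.34) rose and IDH3B (-0.27) and OGDH (-0.23) fell. Those knockdown calls were lost in 13 of 25 alternative fits for OGDH, 10 for SDHD, 8 for SUCLG2 and 6 for IDH3B. FH lost its knockdown call in 1. Among pentose phosphate genes, RPIA (-0.46) fell with 4OHT and TKT (-0.40) fell on knockdown.

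Over 13740 genes with a symbol and at least 1 CPM in a group, the genes whose pair of log2 fold changes (4OHT against DMSO, siSMARCA4 against siNT) lay nearest to that of HK2 by Euclidean distance were BHLHE40-AS1 (2.92 and -0.50), LAPTM5 (2.97 and -0.36) and NKAIN1 (3.05 and -0.37), none of which was itself called on knockdown. Their knockdown values were unstable: leaving out 1 library gave -0.70 (without 4OHT siNT 2-2VM) to -0.15 (without 4OHT siNT 4-2VM) for BHLHE40-AS1, -0.53 (without 4OHT siSMARCA4 4-2V) to -0.22 (without 4OHT siSMARCA4 2-1VM) for LAPTM5 and -0.47 (without 4OHT siSMARCA4 4-3V) to -0.24 (without 4OHT siNT 2-3VM) for NKAIN1. Nearest to SLC2A3 (1.03 and 0.23) were LACC1 (1.04 and 0.21), SEMA4C (1.01 and 0.24) and SMIM3 (1.01 and 0.23), of which SMIM3 was called on knockdown, though not without 4OHT siNT 2-1VM (0.21, edgeR adjusted p 0.0505).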

How the data were processed

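For every library a table of expected counts was deposited, estimated read pairs per gene and repeat locus with no normalization. The authors had trimmed 110-base pairs with cutadapt 4.7, aligned them to GRCh38 with HISAT2 2.2.1 keeping up to 100 alignments, and counted with TElocal in reverse-stranded, multi-mapping mode, so reads of near copies are shared by likelihood.

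Counts were read as whole numbers and repeat loci summed per subfamily. Genes and subfamilies were filtered with filterByExpr (minimum count 10, minimum total 15), scaled by TMM (factors 0.949 to 1.08), and fitted with edgeR's quasi-likelihood test (edgeR 4.0.16, R 4.3.3) with 1 term per group over all 17 libraries, with Benjamini-Hochberg adjustment over 19473 genes. A second fit had 1 term per group and siRNA number. Scripts were tested on simulated data. Paralog ratios used exact 2-sided permutation tests, adjusted over 12. Positions and exon lengths came from GENCODE 44, with all annotated exons of a gene merged. Depth was 39.1 M to 68.98 M counts per library. Alternatives were other scalings, DESeq2 1.42.0, filters, subsets, covariates and blocks.

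The members and the other gene lists (12 lists with the members) were chosen with earlier results of these data known. Named genes were the 10 members, SMARCA4, up to 3 called genes per list, direction and comparison with the largest change and at least 1 CPM, the 3 nearest genes to the members with the largest rise and fall on knockdown, and marker and near copy genes as counts, by name where 5 or fewer. HIF1A and LDHB fall outside this rule and were chosen after their values were seen. The result of 1 listed gene is not reported here.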

Additional observations from a re-analysis of the deposited data

Results flagged for a closer look

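PFKFB3 in 4OHT siNT 4-2VM was at 136 CPM, far from the other 5 libraries of its group by Dixon's criterion, and its knockdown change of 0.20 became 0.27 (edgeR adjusted p 0.0195) without that library. The log2 ratio of SLC2A3 to SLC2A1 in 4OHT siNT 4-3VM was 0.079 per length, above the other 5 libraries by the same criterion. Dixon's criterion was applied to 42 groups of libraries, and chance passes about 1 in 20.

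The change of SLC2A1 with 4OHT differed between the siRNA numbers by -0.78 (number 2 minus number 4; edgeR adjusted p 0.0389). The number 4 arm of DMSO siNT held 2 libraries.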

How the results depend on the processing

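Over 730 values of the 10 genes under the alternatives, 673 kept their direction and side of the threshold, 15 lost and 9 gained a call, and 33 changed sign. Genes called on knockdown numbered 4703 of 19473 tested, with 4479 of 19588 in number 2 alone and 1198 of 19909 in number 4 alone (3 against 3 libraries each). For number 4 they numbered 3126 of 19473 when all libraries were fitted together. Beside these counts, the 10 genes had 4 calls on knockdown with number 2 alone and 0 with number 4 alone (edgeR, 3 against 3 libraries). With number 4 alone, 1 was at an unadjusted edgeR p under 0.05, for which the share over all genes is not given. DESeq2 over all libraries called 2 of the 10, beside 5194 of 19473 genes. Leaving out 1 library gave 1 to 3 of the 10, beside 3717 to 5250 genes. The calls of SLC2A1 with 4OHT (-0.20, edgeR adjusted p 0.245) and in 4OHT siSMARCA4 against DMSO siNT (-0.18, edgeR adjusted p 0.316) were lost with number 4 alone, and that of SLC16A3 with 4OHT (0.43, edgeR adjusted p 0.0698) with number 2 alone. In the last comparison, called "against DMSO" here, HK1 (0.24) and SLC16A3 (0.35) were not called in VM libraries alone, nor HK1 with number 4 alone (0.39, edgeR adjusted p 0.0635). The cause was not tested.

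The libraries with the same label did not all deviate together over 3 pairs each (r -0.45 to 0.21 for DMSO and 4OHT siNT, -0.10 to 0.30 for 4OHT siNT and siSMARCA4), and pairs with unlike labels spanned -0.53 to 0.61, so the pairing was not established. A replicate block by the whole label gave 3045 genes called on knockdown, 6329 against DMSO and 1 of the 10 genes on knockdown, losing SLC2A3 (0.33 against 0.23 without the block, adjusted p 0.0575, edgeR). With 4OHT it lost SLC2A1 (-0.41, adjusted p 0.138), and against DMSO it lost HK1 (0.36, adjusted p 0.0796) and SLC16A3 (0.44, adjusted p 0.126), leaving 5 of the 10 called.

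Sign changes fell on values that were not called in either fit. On knockdown they were values in leave-one-out fits of PDK1 (range -0.079 to 0.115), SLC16A3 (-0.015 to 0.139) and PFKP (-0.15 to 0.0221), PFKP (0.17) and PKM (0.17) with number 2 alone, SLC2A1 (0.0225) and NKAIN1 (0.25) with number 4 alone, LDHA (-0.20), SLC16A3 (-0.0675) and PDK1 (-0.28) in VM alone, LDHA (-0.061) and PDK1 (-0.17) with the tag as covariate, and PKM (0.0148), LDHA (-0.18), SLC16A3 (-0.0395) and PDK1 (-0.15) with the whole-label block. PFKP with 4OHT ranged from -0.107 to 0.0478 in leave-one-out fits and was 0.35 with number 4 alone, -0.40 and called with number 2 alone (edgeR adjusted p 0.00587), 0.0296 with the tag as covariate, and 0.0594 and 0.0586 with the whole-label and number blocks. Against DMSO, number 4 alone gave PFKP 0.16 and PKM -0.10 while number 2 alone called PKM higher (0.23, edgeR adjusted p 0.0188), VM alone gave LDHA -0.17, the whole-label block LDHA -0.0716 and the number block PFKP 0.0136.

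The log2 ratio of SLC2A3 to SLC2A1 with 4OHT was 1.81 with number 2 alone and 1.36 with number 4 alone, and against DMSO 2.61 and 1.55. That of LDHA to LDHB on knockdown was -0.26 in VM alone. Leaving out 1 library gave -0.0297 to 0.17 for LDHA to LDHB, -0.31 to -0.22 for HK2 to HK1, 0.40 to 0.58 for SLC2A3 to SLC2A1 and -0.44 to -0.27 for SLC16A3 to SLC16A1 on knockdown, and 0.13 to 0.47 with 4OHT and -0.25 to 0.0945 against DMSO for SLC16A3 to SLC16A1. The lowest member, PDK1, still averaged 17.5 CPM in 4OHT siNT.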
